A study of Rattus norvegicus with 21 samples.

Results

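Ugt2b and Abhd3 are 2 genes whose signal in rat liver differed sharply between animals of the same dose group. The members were all probe sets whose gene symbol in the array's platform annotation is exactly Ugt2b or Abhd3, which gave 4 of 31099 probe sets: 1387825_at and 1385247_at for Ugt2b, and 1382137_at and 1381773_at for Abhd3. A probe set is a group of short oligonucleotides on the array that together report 1 transcript. Livers of 21 male rats were measured, 1 array per animal, in 7 groups of 3. The PBO study used 12 Sprague-Dawley rats given piperonyl butoxide (PBO, an insecticide synergist) by mouth at 500, 1000 or 1500 mg/kg, or 0.5% methyl cellulose as control (0 mg/kg), for 7 days. The DAM study used 9 Fischer344 rats fed a basal diet, or a diet with 2% or 5% dammar resin (DAM, a plant resin; 800 and 2000 mg/kg), for 28 days. Ages were not given. Sprague-Dawley rats are an outbred stock and Fischer344 rats an inbred strain. Liver storage also differed, with RNAlater in the first study and liquid nitrogen in the second, so strain, compound, route, duration and storage cannot be told apart between the studies.

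UDP-glucuronosyltransferases sit in the endoplasmic reticulum of hepatocytes and transfer glucuronic acid from UDP-glucuronate to steroids, bile acids, bilirubin and drugs, which makes these soluble enough for bile and urine. Ugt2b, also listed as Ugt2b2 in RefSeq, belongs to the 2B family; the rat enzyme is known for conjugating the androgen metabolite androsterone, and rat stocks are known in which that activity is inherited as present or absent. Abhd3 encodes a membrane-bound hydrolase of the alpha/beta fold known to cleave phosphatidylcholines with a medium-length acyl chain. Genotypes of these animals were not measured.

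Both genes were matched in RefSeq, and the 150 bases before each annotated transcription start are shown because these are the 2 reference promoters of the genes described. They come from the reference strain and not from these animals. Capitals mark the matches to 4 searched motifs.
Ugt2b: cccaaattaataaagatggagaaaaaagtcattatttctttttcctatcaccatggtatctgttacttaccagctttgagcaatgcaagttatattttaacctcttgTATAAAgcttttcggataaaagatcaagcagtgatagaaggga
Abhd3: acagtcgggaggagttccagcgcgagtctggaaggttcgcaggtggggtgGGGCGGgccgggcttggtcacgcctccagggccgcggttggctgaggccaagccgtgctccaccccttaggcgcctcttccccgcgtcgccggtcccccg
The Ugt2b window is chr14:20985299-20985448 on the plus strand and the Abhd3 window chr18:2051290-2051439 on the minus strand, both in GRCr8. The Ugt2b window had 32.7% G and C and 1 CG dinucleotide, and 3.89% of 33469 RefSeq promoter windows of this length had a lower G and C share. The Abhd3 window had 72.7% G and C and 16 CG dinucleotides, and 91.5% of windows had a lower share. The motifs were searched on both strands, and no matches overlapped. The TATA box, TATAAA, had 1 match in the Ugt2b window, beginning 43 bases before the start, and was present in 8.0% of all windows. The GC box, GGGCGG, had 1 match in the Abhd3 window, beginning 100 bases before the start, and was present in 26.0% of windows. The CCAAT motif (23.5% of windows) had no match in either window. The HNF1 half-site, GTTAAT (3.74% of windows), had none either.

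Both genes were chosen on these same 21 array signals, so the signals are given as a description and no test of them is made. Signals are in MAS5 units on a linear scale. An array was assigned to the high or the low range of a probe set by the widest gap between its sorted log2(signal + 16) values.

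Ugt2b was in the high range in 9 of 12 Sprague-Dawley rats and in none of 9 Fischer344 rats. At 0 mg/kg the signals of 1387825_at were 25952, 27725 and 26690 in replicates 1 to 3, and at 500 mg/kg of PBO they were 25855, 30102 and 25840. At 1000 mg/kg they were 18979, 62.5 and 19219. At 1500 mg/kg they were 55.8, 34.0 and 17558. All 6 rats at 0 and 500 mg/kg were thus high, and PBO 1000 replicate 2 and PBO 1500 replicates 1 and 2 were low. No signal lay between 73.8, the highest low value of all 21 arrays, and 17558, the lowest high value, a 238-fold distance. Low values ranked at percentiles 21.4 to 48.4 of their own array, below the array's median signal in all 12 cases, and high values at percentiles 99.2 to 99.6. No detection calls were used, so a low signal is not a statement that no transcript was present.

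The Fischer344 signals of 1387825_at were 55.0, 39.7 and 73.8 on the basal diet, 69.8, 42.3 and 16.8 at 800 mg/kg of DAM, and 27.8, 47.7 and 44.1 at 2000 mg/kg. The 3 ranges overlap one another, and together they span the values of the 3 low Sprague-Dawley rats, 34.0 to 62.5. By median, the groups ran from PBO 0 through PBO 500, PBO 1000, PBO 1500, DAM 0 and DAM 2000 to DAM 800. Neighbours in that order overlapped except PBO 500 and PBO 1000.

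**Figure D1:**
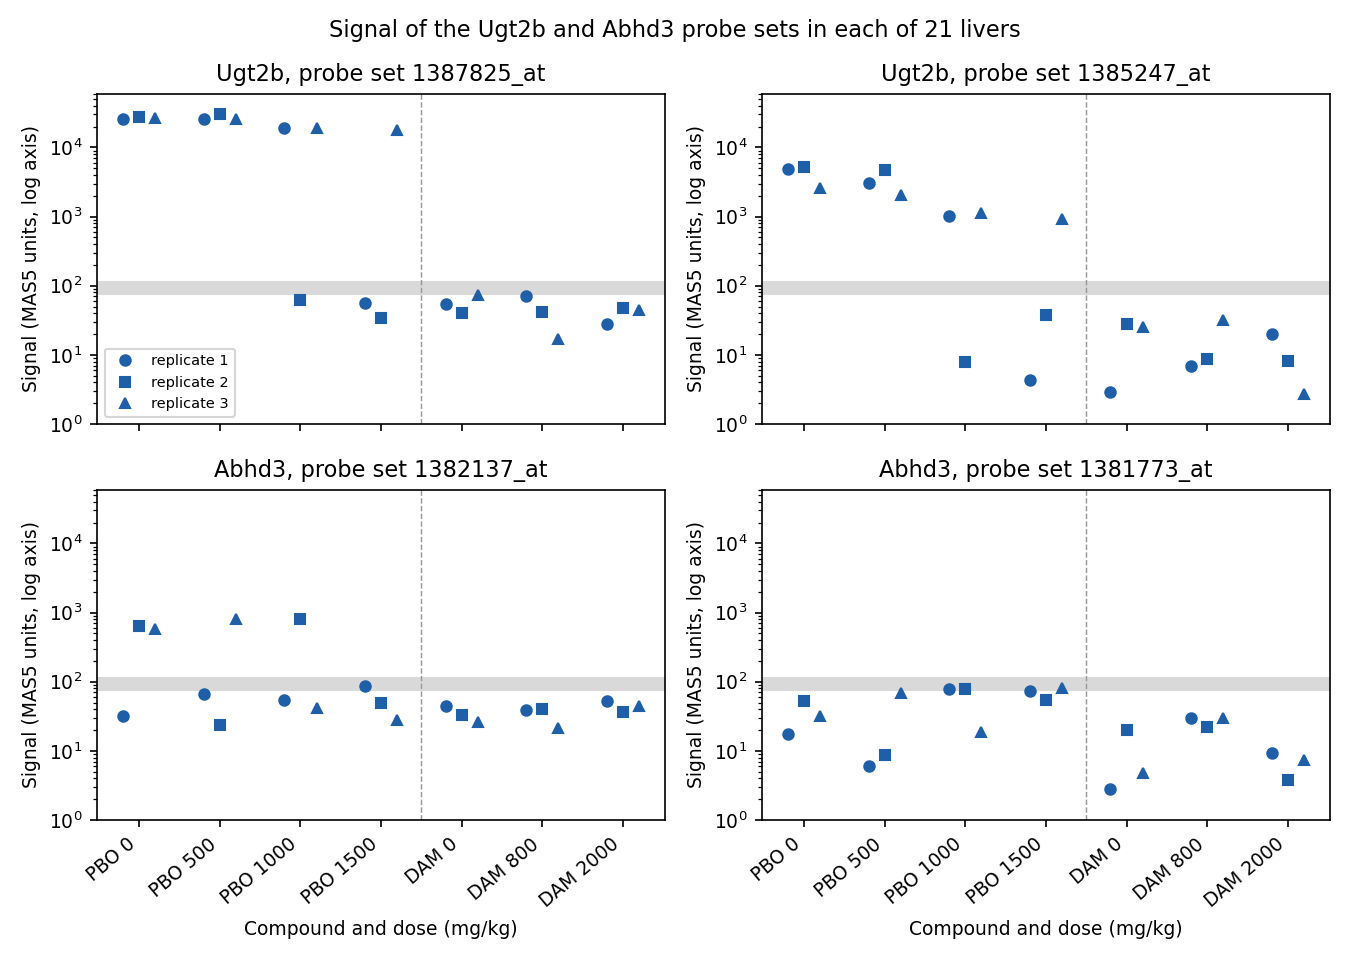
Signal in MAS5 units (log axis) of the 2 Ugt2b and 2 Abhd3 probe sets in each of 21 livers, by compound and dose in mg/kg; marker shape gives the replicate and the grey band spans the median signals of the arrays (76.0 to 114). Ugt2b 1387825_at lies at 17558 or more or at 73.8 or less in every liver, Abhd3 1382137_at has 4 livers at 587 or more, and Abhd3 1381773_at is at most 81.2.

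The dimmer Ugt2b probe set, 1385247_at, split the animals in the same way. Its signals were 4835, 5150 and 2555 at 0 mg/kg and 3030, 4771 and 2066 at 500 mg/kg of PBO. At 1000 mg/kg they were 1006, 7.94 and 1127, and at 1500 mg/kg 4.29, 37.7 and 922. The 9 Fischer344 livers ranged from 2.69 to 31.7 with a median of 8.68. The 2 probe sets put the same 9 rats in the high and the same 12 in the low range, and their log2 signals had Pearson's r = 0.973 over 21 arrays and 0.963 over the 12 PBO arrays. Over the 9 DAM arrays, where both were low, r was -0.451. They report the same gene and share the RNA of each array, and r is a description of that.

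The high signals also differed by dose. In 1387825_at the 3 high rats at 1000 and 1500 mg/kg had 17558 to 19219, below each of the 6 rats at 0 and 500 mg/kg, which had 25840 to 30102. In 1385247_at the same 3 rats had 922 to 1127, against 2066 to 5150. The ratio of the first to the second probe set was 5.37 to 12.5 in the 6 rats at 0 and 500 mg/kg and 17.1 to 19.0 in these 3. Because animals were sorted here by the signal itself, these values carry no test.

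The dose comparisons of Ugt2b therefore carried a wide error. With limma on log2(signal + 16), 1387825_at had a difference from control of 0.02 ± 2.13 (SE, n = 3 per group) at 500 mg/kg of PBO, -3.13 ± 2.13 at 1000 mg/kg and -6.07 ± 2.13 at 1500 mg/kg. The value at 1000 mg/kg was -0.49 without PBO 1000 replicate 2, the low animal of that group. The value at 1500 mg/kg ranged from -8.80 to -4.58 over the fits that left out 1 array, the first without PBO 1500 replicate 3, the high animal. For 1385247_at the differences were -0.36 ± 1.41, -3.72 ± 1.41 and -5.31 ± 1.41, the second being -1.89 without PBO 1000 replicate 2. Each standard error starts from the spread within all 4 dose groups together, which limma then draws towards that of probe sets of like signal. This made the errors of these split probe sets smaller than their own spread alone would give. Their own residual SD was 3.30 for 1387825_at, 2.18 for 1385247_at and, for the Abhd3 errors below, 1.93 for 1382137_at. In the DAM study, where every animal was low, 1387825_at differed by -0.37 ± 0.36 at 800 mg/kg and -0.36 ± 0.36 at 2000 mg/kg. The first ran from -0.54 without DAM 0 replicate 2 to -0.0010 without DAM 800 replicate 3. The second ran from -0.53 without DAM 0 replicate 2 to -0.19 without DAM 2000 replicate 1. There 1385247_at did not pass the filter on low values. The 3 PBO comparisons share their control rats, as do the 2 DAM comparisons.

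Abhd3 was high in 4 of 12 Sprague-Dawley rats and in none of 9 Fischer344 rats, by 1 of its 2 probe sets. The signals of 1382137_at were 32.0, 642 and 587 in replicates 1 to 3 at 0 mg/kg, and 65.4, 23.4 and 806 at 500 mg/kg of PBO. They were 53.7, 820 and 42.3 at 1000 mg/kg and 86.2, 49.2 and 27.6 at 1500 mg/kg. High animals occurred at 0, 500 and 1000 mg/kg, and 2 of the 3 control rats were high. The lowest high value, 587, was 6.82-fold above the highest low value, 86.2. The 17 low values were below the median of their own array, at percentiles 21.5 to 45.2, and the 4 high ones were at percentiles 79.6 to 83.7. The Fischer344 livers ranged from 21.6 to 52.8, with a median of 39.4. By median the groups ran from PBO 0 through PBO 500, PBO 1000, PBO 1500, DAM 2000 and DAM 800 to DAM 0, and each group overlapped the next.

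The other Abhd3 probe set, 1381773_at, did not show this split. Its signals ranged from 2.79 to 81.2 and lay below the array's median on all 21 arrays. The rats with high 1382137_at signal had 52.2, 32.2, 69.2 and 78.7 in 1381773_at, while PBO 1000 replicate 1 and PBO 1500 replicates 1 to 3, all low in 1382137_at, had 79.1, 73.3, 54.7 and 81.2. Its widest gap over the 21 arrays was 0.50 log2 units, against 2.56 for 1382137_at, 4.13 for 1385247_at and 7.61 for 1387825_at. Pearson's r between the 2 Abhd3 probe sets was 0.495 over 21 arrays and 0.384 over the 12 PBO arrays. The label of an on/off gene thus rests on 1382137_at for Abhd3, and which transcripts or exons the 2 probe sets cover was not analysed here. For 1382137_at the difference from control was -0.95 ± 1.26 at 500, -0.83 ± 1.26 at 1000 and -2.01 ± 1.26 at 1500 mg/kg of PBO. Single animals set these values. The difference at 500 mg/kg was -0.05 without PBO 500 replicate 2, -0.30 without PBO 0 replicate 2, -2.19 without PBO 0 replicate 1 and -2.24 without PBO 500 replicate 3. At 1000 mg/kg it was -0.15 without PBO 1000 replicate 3 and -2.07 without PBO 0 replicate 1 or PBO 1000 replicate 2. At 1500 mg/kg it ran from -3.25 without PBO 0 replicate 1 to -1.36 without PBO 0 replicate 2. In the DAM study 1382137_at, and in both studies 1381773_at, did not pass the filter. In the PBO study 1382137_at passed the filter on a mean that included its 4 high arrays. Its 8 low PBO arrays were at percentiles 21.5 to 45.2.

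The 2 genes did not split the animals alike. Of the 12 Sprague-Dawley rats, 3 were high in both (PBO 0 replicates 2 and 3 and PBO 500 replicate 3), and 6 were high in Ugt2b and low in Abhd3. PBO 1000 replicate 2 was low in Ugt2b and high in Abhd3. PBO 1500 replicates 1 and 2 were low in both, as were all 9 Fischer344 rats. Pearson's r between 1387825_at and 1382137_at was -0.0832 over the 12 PBO arrays and 0.302 over all 21, the second including the 9 Fischer344 arrays that were low in both genes.

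**Figure D2:**
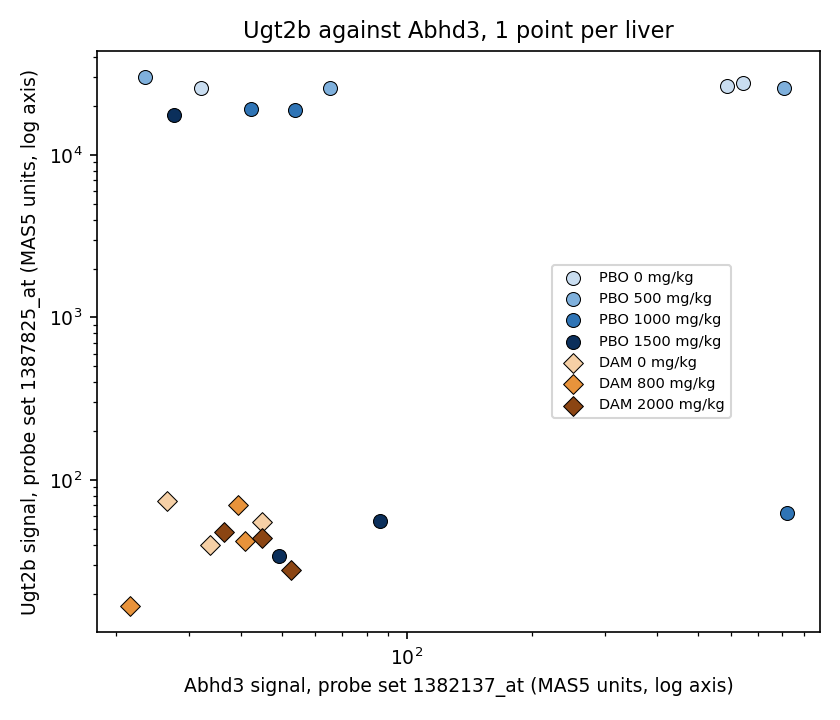
Ugt2b signal (1387825_at) against Abhd3 signal (1382137_at), both in MAS5 units on log axes, 1 point per liver, circles for the PBO study and diamonds for the DAM study, colour by dose. The Sprague-Dawley livers occupy all 4 corners, with 3, 6, 1 and 2 animals, and the 9 Fischer344 livers lie in the corner that is low for both genes.

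Few other probe sets split animals within a dose group by so wide a gap with at least 2 arrays on each side. Splits made by 1 array alone were not counted. Over the 12 PBO arrays, 3 of 31042 probe sets had a widest gap of at least 4 log2 units with at least 2 arrays on each side. In 2 of them, the 2 Ugt2b probe sets, a dose group held arrays of both sides (0.00644% of probe sets); the third was Gsta3, a glutathione S-transferase, whose 3 low arrays were the 3 controls. No probe set met this in the DAM study. With a gap of at least 2.5, a limit set after the Abhd3 gap was known, 6 probe sets had a mixed dose group in the PBO study (0.0193%). Besides the members these were Zfp212, a zinc finger gene, with a gap of 2.96 and 3 low rats (PBO 0 replicate 3, PBO 500 replicate 1 and PBO 1500 replicate 1), the sulfotransferase gene Sult2a2, and 1 probe set with no gene symbol, 1393108_at. Sult2a2 had a gap of 2.63, with PBO 1000 replicate 3 and PBO 1500 replicates 1 and 3 high.

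**Figure D3:**
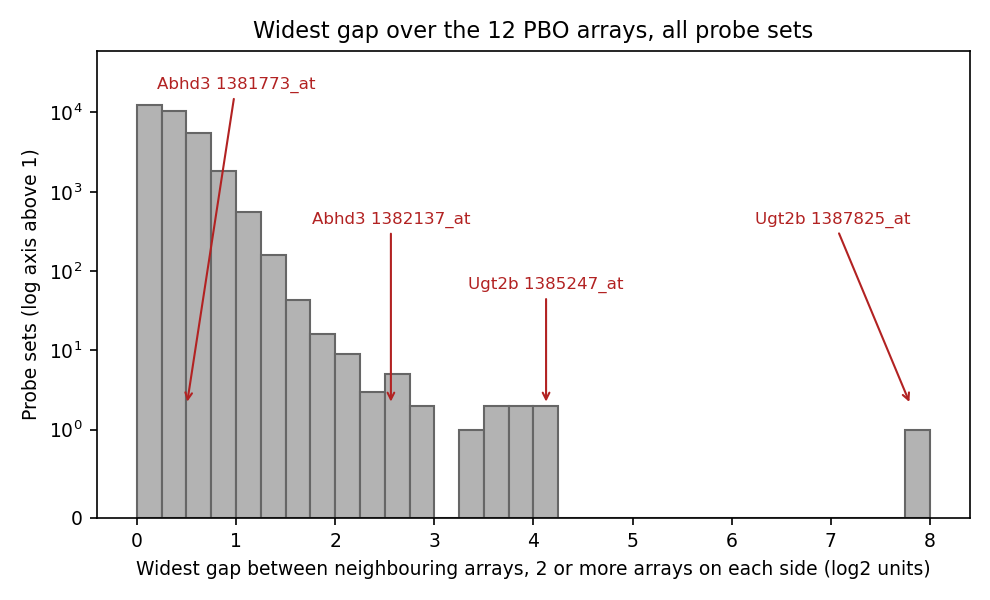
Number of probe sets (log axis above 1) by their widest gap between neighbouring sorted arrays, in log2(signal + 16) units, over the 12 PBO arrays and with at least 2 arrays on each side; arrows mark the 4 member probe sets. Ugt2b 1387825_at stands alone at 7.81, Ugt2b 1385247_at is at 4.13 and Abhd3 1382137_at at 2.56, while Abhd3 1381773_at, at 0.50, lies among the bulk.

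The named probe sets most like Ugt2b 1387825_at over the 12 PBO arrays, by Pearson's r of log2 signals, were 1385247_at of the same gene, Fcer1a (r = 0.948), Cep97 (0.910), Lysmd3 (0.904) and Gdpd5 (0.904). Fcer1a spanned 1.87 log2 units over these arrays, from 5.06 to 61.1, and Lysmd3 0.71, from 828 to 1368, where Ugt2b spanned the gap above. For Abhd3 1382137_at they were Acsbg1 (r = 0.920), Krt14 (0.906), Septin8 (0.893), Med31 (0.876) and Hdgfl1 (0.851). Krt14 ranged from 12.3 to 120 and Med31 from 1002 to 1409. Over all probe sets, 72 had an r above 0.8 with Ugt2b (0.232%) and 43 with Abhd3 (0.139%). With 12 arrays these are descriptions of likeness.

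The nearest measured genes around the members in the RefSeq order did not share their split. Of the 3 nearest annotated genes on each side, 0 of 6 had a named probe set for Ugt2b and 1 of 6 for Abhd3. The nearest 3 with a probe set on each side were therefore taken instead, a choice made after the data were seen. These lay 5 to 9 annotated genes away from Ugt2b and 2 to 19 away from Abhd3. Ugt2b15, on one side of Ugt2b, had 16671, 18751 and 17402 at 1000 mg/kg and 16021, 16868 and 13476 at 1500 mg/kg, with the low-Ugt2b rats second in the first group and first and second in the other. Sult1b1, a sulfotransferase gene on the other side, had 26753, 26093 and 28876, and 31780, 32680 and 32398. The widest gap over the PBO arrays was 0.08 log2 units for Ugt2b15, 0.14 for Sult1b1, 0.12 for Ugt2b35 and 0.49 for Ugt2a1. Sult1d1 (0.489 to 55.4 in the PBO study) and Ugt2b7 (4.77 to 106) had low signals throughout. Of the measured genes around Abhd3, Snrpd1, a subunit of the spliceosome, had a widest gap of 0.21, Greb1l 0.30, Rock1 0.15, LOC100909782 0.31, Gata6 0.12 and Rbbp8 0.49.

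Of the other transferases, Ugt2b1, Ugt2a1 and Ugt2b10 were higher at 1000 and 1500 mg/kg of PBO than in controls, while Ugt2b15 and Ugt2b35 passed the test at no PBO dose. Of 21 genes on a list of UDP-glucuronosyltransferases, 7 had a probe set under their own symbol and 5 of these passed the filter on low values. Of these 5, 1 rose at 500 mg/kg of PBO (0.349% of all probe sets tested were higher), 3 at 1000 mg/kg (1.88%) and 3 at 1500 mg/kg (8.08%), at an adjusted p under 0.05 with limma. In the DAM study 2 rose at 800 mg/kg (2.16%) and 4 at 2000 mg/kg (6.22%). No gene of the list fell in any of the 5 comparisons, where 0.129%, 1.23%, 9.26%, 1.62% and 6.11% of probe sets were lower, and 0 had an unadjusted p under 0.05 for a fall. The median difference was 0.73, 1.29 and 1.54 at the 3 PBO doses and 0.39 and 0.51 at the 2 DAM doses, against -0.04, -0.05, -0.08, -0.02 and -0.04 over all probe sets tested. Marker sums of other cell types moved between the same groups, and their part in these and the following lists was not tested. The sum of 4 of 5 cholangiocyte markers was between 1096 and 1422 in PBO controls and between 3465 and 4226 at 1500 mg/kg. That of 4 of 5 erythroid markers was between 21717 and 23029 in PBO controls and between 4375 and 10037 at 1500 mg/kg. For 6 of 6 T and NK cell markers the 2 ranges were 441-560 and 136-195. In the DAM study, the cholangiocyte sum was between 670.5 and 924 in controls and between 1599 and 1743 at 2000 mg/kg. For 5 of 5 pancreas acinar markers the ranges were 1184-1363 and 401-512 in the PBO study, and 2245-2575 and 1427-1762 in the DAM study. For 5 of 5 stellate cell markers they were 3052-4083 and 1653-3002, and 3009-3856 and 2700-2906. The endothelial sum also fell at 1500 mg/kg of PBO (9137-9837 and 6597-7729), and that of 7 of 8 macrophage markers at 2000 mg/kg of DAM (16760-17317 and 12086-15229).

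Ugt2b1, a phenobarbital-inducible transferase, had 3172, 3148 and 5874 at 0 mg/kg and 31441, 33239 and 37164 at 500 mg/kg of PBO. It rose by 3.12 ± 0.20 (SE, n = 3 per group, adjusted p = 3.31e-06), with no overlap of the groups, and by 3.14 ± 0.20 at 1000 and 3.0 ± 0.20 at 1500 mg/kg. In Fischer344 rats it rose by 1.60 ± 0.17 at 800 mg/kg of DAM and 1.89 ± 0.17 at 2000 mg/kg (adjusted p = 1.89e-05). The rats low in Ugt2b had 33614 (PBO 1000 replicate 2), 26314 and 33205 (PBO 1500 replicates 1 and 2) in Ugt2b1. Those values lie beside 35029, 34489 and 34874 of their group mates.

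Ugt2a1, best known from the olfactory epithelium, had a mean of 374 ± 33.7 (SD) at 0 mg/kg and 1305 ± 302 at 1500 mg/kg of PBO, a rise of 1.74 ± 0.24 (adjusted p = 0.000473). It rose by 1.49 ± 0.24 at 1000 mg/kg, and by 1.40 ± 0.18 and 1.27 ± 0.18 at the 2 DAM doses. Ugt2b10, another transferase of the 2B family, rose by 1.29 ± 0.22 at 1000 and 1.54 ± 0.22 at 1500 mg/kg of PBO (adjusted p = 0.000569) and by 0.51 ± 0.10 at 2000 mg/kg of DAM (adjusted p = 0.00557). At 1500 mg/kg its signals were 19047 and 15445 in the 2 rats low in Ugt2b and 8460 in replicate 3. The order was the other way at 1000 mg/kg, with 10020 in replicate 2, the rat low in Ugt2b, and 11344 and 13083 in replicates 1 and 3. Ugt2b35 rose by 0.26 ± 0.08 at 2000 mg/kg of DAM (adjusted p = 0.0437). That call was lost without DAM 0 replicate 1 (adjusted p = 0.147) or 3 (0.0979), and without any 1 of the DAM 2000 replicates (0.143, 0.0683 and 0.0685). Ugt2b15 did not pass in any comparison, with differences of 0.05 to 0.31.

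**Figure D4:**
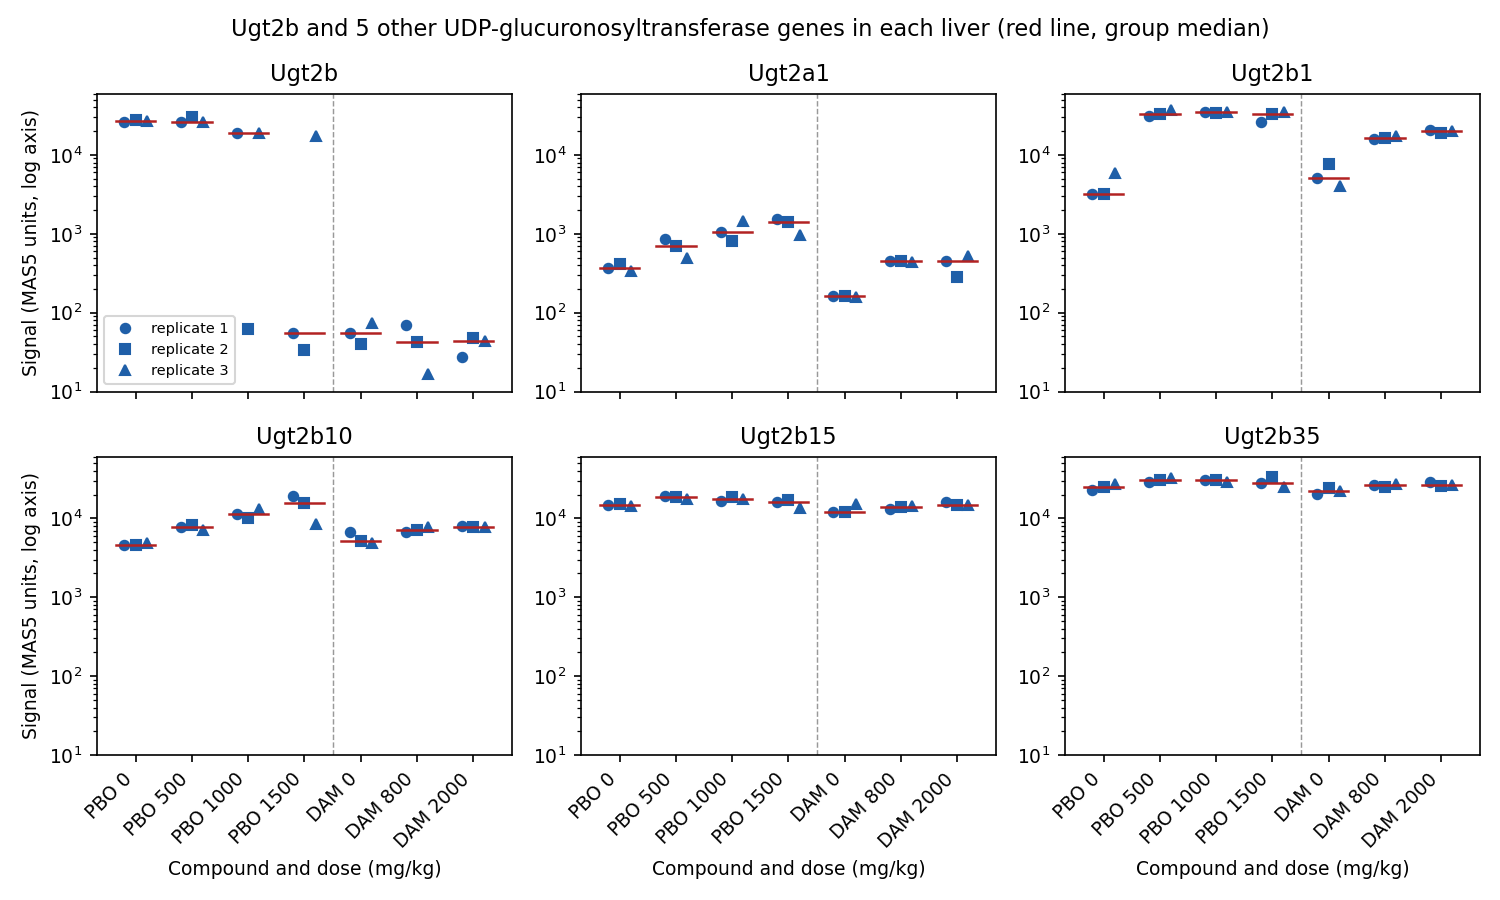
Signal in MAS5 units (log axis) of Ugt2b (1387825_at) and the 5 tested transferase genes in each of 21 livers, by compound and dose in mg/kg; marker shape gives the replicate and the red line the group median. Ugt2b is at 73.8 or less in 12 livers, while Ugt2b1 rises from 3148 to 5874 in PBO controls to at least 26314 in each dosed rat of that study.

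A list for UDP-glucuronate supply had 4 tested genes, Ugdh, Ugp2, Slc35d2 and Gusb. The last encodes beta-glucuronidase, which cleaves glucuronides and does not supply UDP-glucuronate. Of these 4, 2 rose (8.08% of all probe sets) and 1 fell (9.26%) at 1500 mg/kg of PBO. At 2000 mg/kg of DAM 1 rose (6.22%) and 1 fell (6.11%). Ugdh, which makes UDP-glucuronate from UDP-glucose, rose by 0.54 ± 0.11 at 1500 mg/kg of PBO (adjusted p = 0.00628) and 0.44 ± 0.06 at 2000 mg/kg of DAM (adjusted p = 0.000414). Ugp2, which makes UDP-glucose, had a change of -1.30 ± 0.23 (adjusted p = 0.00204) and -0.55 ± 0.09 (adjusted p = 0.00146). The other rise at 1500 mg/kg, that of the nucleotide sugar transporter gene Slc35d2 (0.54 ± 0.17, adjusted p = 0.041), had an adjusted p of 0.151 and 0.109 without PBO 0 replicates 1 and 2, and of 0.0888 and 0.0934 without PBO 1500 replicates 1 and 2, in turn. Of the same 4, 1 rose at 1000 mg/kg of PBO (1.88% of all probe sets) and 1 at 800 mg/kg of DAM (2.16%). The first count was 0 without any 1 of the PBO 0 replicates and without PBO 1000 replicate 1 or 2, and the other was 0 without DAM 800 replicate 3.

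Among 9 tested genes of androgen and steroid metabolism, which includes makers of substrates for the 2B transferases, 2 rose and 3 fell at 1500 mg/kg of PBO, beside 8.08% higher and 9.26% lower over all probe sets; without PBO 1500 replicate 2 the falls were 5. Akr1c14, a 3-alpha-hydroxysteroid dehydrogenase, rose by 0.61 ± 0.09 (adjusted p = 0.000658; its probe set is of a type that can match related transcripts), while the steroid hydroxylase Cyp2c11 had a change of -2.26 ± 0.35 (adjusted p = 0.000879) and Hsd11b1, which regenerates active glucocorticoid, -1.12 ± 0.20 (adjusted p = 0.00205). At 2000 mg/kg of DAM 4 rose and 1 fell, beside 6.22% and 6.11%, with 2 falls without DAM 0 replicate 1. Hsd17b2, which inactivates testosterone, rose by 0.69 ± 0.10 (adjusted p = 0.000566), the bile acid and steroid reductase Akr1d1 by 0.80 ± 0.12 (adjusted p = 0.000663), and the hydroxysteroid dehydrogenase Hsd17b6 had a change of -2.12 ± 0.14 (adjusted p = 1.89e-06). The counts were 2 rises at 1000 mg/kg of PBO (1.88% of all probe sets). At 800 mg/kg of DAM they were 3 rises and 1 fall (2.16% and 1.62%). Those 2 rises were 1 without PBO 0 replicate 3 and 0 without any 1 of the other PBO 0 and PBO 1000 replicates.

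Of 17 tested relatives of Abhd3 in the ABHD family, 4 rose and 1 fell at 1500 mg/kg of PBO, beside 8.08% higher and 9.26% lower over all probe sets, so that the share of falls was no larger than the background. The falls were 3 without PBO 1500 replicate 1 and 2 without replicate 2 or 3 of that group. Abhd4, a hydrolase of N-acyl phospholipids, rose by 1.87 ± 0.15 (adjusted p = 6.85e-06) and Abhd12, a lipase of lysophosphatidylserine, by 2.10 ± 0.27 (adjusted p = 0.000259). Abhd1 had a change of -0.91 ± 0.13 (adjusted p = 0.00047). At 2000 mg/kg of DAM 3 rose and 1 fell (6.22% and 6.11% over all probe sets; 2 falls without DAM 0 replicate 3), with Abhd4 at 0.64 ± 0.13 (adjusted p = 0.0059) and Abhd5, the activator of the triglyceride lipase ATGL, at -0.66 ± 0.12 (adjusted p = 0.00278). At 1000 mg/kg of PBO 2 rose (1.88% of all probe sets). The count was 1 without PBO 0 replicate 3 or PBO 1000 replicate 1, and 0 without PBO 1000 replicate 3. At 800 mg/kg of DAM 0 changed, beside 2.16% higher and 1.62% lower over all probe sets. At an unadjusted p under 0.05 by limma, 1 was higher and 2 were lower.

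Of 16 tested genes of phosphatidylcholine metabolism, the substrate class of Abhd3, 3 rose and 1 fell at 1500 mg/kg of PBO, beside 8.08% higher and 9.26% lower over all probe sets; without PBO 1500 replicate 1 or 3 the falls were 2. The phospholipase Pla2g12a rose by 3.04 ± 0.37 (adjusted p = 0.000144) and Pemt, which makes phosphatidylcholine by methylation, had a change of -0.90 ± 0.12 (adjusted p = 0.00031). At 2000 mg/kg of DAM Pla2g12a rose by 2.00 ± 0.18 (adjusted p = 1.8e-05), and Lpcat3, a lysophosphatidylcholine acyltransferase, had a change of -0.44 ± 0.08 (adjusted p = 0.00347). Those were the 1 rise and 1 fall of that comparison, shares near the 6.22% and 6.11% over all probe sets; the rises were 2 without DAM 2000 replicate 3, and the falls 2 without that array or DAM 0 replicate 1. At 1000 mg/kg of PBO 1 gene rose (1.88% of all probe sets). That rise was lost without PBO 0 replicate 1 or 2 or any 1 of the PBO 1000 replicates. At 800 mg/kg of DAM 1 rose and 1 fell (2.16% and 1.62%), and the fall was lost without any 1 of the 6 compared arrays. At 500 mg/kg of PBO 0 genes of these 4 lists passed, beside 0.349% higher and 0.129% lower over all probe sets. At an unadjusted p under 0.05 by limma, 1, 2, 2 and 4 were higher and 0, 0, 1 and 1 lower, in the order described.

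Array medians were 94.3 to 114 in the PBO study and 76.0 to 86.2 in the DAM study. The ratio of 3' to 5' signal of Gapdh was 1.07 to 1.19 and 1.52 to 2.02. PBO 1000 replicate 2 and PBO 1500 replicates 1 and 2 had ratios of 1.11, 1.14 and 1.09, within the range of their study. Of 10 hepatocyte markers 9 had a probe set, with summed signals of 260593 to 369804 in the PBO study and 223096 to 290684 in the DAM study. They came to 302263 in PBO 1000 replicate 2 beside 316647 and 321767 in its group mates, and to 277142 and 317059 in PBO 1500 replicates 1 and 2 beside 260593 in replicate 3. The summed signal of 7 of 8 macrophage markers was 9306, 14809 and 13651 in PBO 1000 replicates 1, 2 and 3 and 19005, 10808 and 3080 in those of PBO 1500. The last group thus held both the highest and the lowest sum of the 12 PBO arrays, the highest in a rat low in Ugt2b and the lowest in the rat high in Ugt2b, and the part of these cells in the Ugt2b values was not tested. In such bulk samples fewer cells of a type and less RNA per cell cannot be told apart.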

How the data were processed

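Total RNA of 21 rat livers was hybridised to 1-colour Affymetrix arrays, 1 per animal. The authors deposited 1 intensity per probe set, unlogged. MAS5 is the tool that the submitters' processing notes name, its version and scaling being not given in the sources used here. Each array's mean after trimming 2% at each end was 500.2 to 500.3. Groups and replicate numbers came from the labels. Symbols were updated by Entrez identifier through RefSeq (GRCr8): 20832 probe sets had 1 symbol, 436 several and 9831 none. Values were taken as log2(signal + 16), 57 array controls left out, and probe sets above the 40th percentile of the mean kept (18625 in each fit). The 2 studies had separate fits with limma 3.58.1 (lmFit, eBayes with trend; R 4.3.3), with Benjamini-Hochberg adjustment and a threshold of 0.05. A gene was represented by its brightest tested probe set. Member tests planned at the outset are given as differences without p, since the members were chosen on these signals. The members and lists were chosen with earlier results of these data known. Named were all member probe sets, the transferase list, the 5 probe sets most like each member, neighbours, probe sets passing the gap limit (up to 10), and up to 3 genes per other list. The code was run on simulated data before use. For PBO 1500 against 0, 16.3% of added changes of 0.5 log2 units and 40.8% of those of 1 unit were called. For DAM 2000 against 0 the shares were 30% and 68%, so small changes can be missed. Alternatives were other pseudocounts (1, 64), filters and scalings, no trend, the replicate block, only the compared arrays, and each array left out. The 3 arrays per group limit the precision.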

Additional observations from a re-analysis of the deposited data

How the results depend on the processing

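The split of Ugt2b 1387825_at and 1385247_at (12 low arrays) and of Abhd3 1382137_at (17 low) was the same under pseudocounts of 1 and 64, quantile normalization and median scaling. Abhd3 1381773_at had 14 arrays below its widest gap, but 7 with a pseudocount of 1 and 9 with quantile normalization or median scaling, so it has no settled split. The count of transferase rises at 500 mg/kg of PBO was 1, and 2 in a fit restricted to the compared arrays; the other transferase counts stayed within 1.5 times. Counts of the other lists at 1000 mg/kg of PBO and 800 mg/kg of DAM were less stable, and the fit restricted to the compared arrays also lowered the rises at 1500 mg/kg of PBO from 4 to 2 (ABHD) and from 3 to 1 (phosphatidylcholine). Leaving out 1 array moved the member differences by less than their residual spread, which itself holds the split: the 1387825_at difference at 1500 mg/kg ran from -8.80 to -4.58 and that at 1000 mg/kg from -4.46 to -0.49. Replicate numbers were shared between groups. Same-numbered arrays deviated together in 0 of 18 PBO pairs and 1 of 9 DAM pairs (r above 0.1, the highest 0.104). That r is taken over all probe sets kept, so it cannot show whether a part of the genes shared a block. With the replicate block the transferase rises at 2000 mg/kg of DAM went from 4 to 3 and the other transferase counts were equal. Of the named genes, Lpcat3 at 2000 mg/kg of DAM lost its call with median scaling (adjusted p = 0.0552), and Slc35d2 at 1500 mg/kg of PBO and Ugt2b35 at 2000 mg/kg of DAM lost theirs without a filter (0.0553 and 0.103), without the trend (0.0617 and 0.144), with the block (0.0542 and 0.0903) and with only the compared arrays (0.099 and 0.0795). Median scaling moved the median difference by 0.112 and 0.122 at 1000 and 1500 mg/kg of PBO and by 0.107 at 2000 mg/kg of DAM, and by under 0.1 elsewhere. Ugt2b15, which passed no PBO test, changed sign at 1500 mg/kg of PBO without PBO 1500 replicate 2 (-0.015, and 0.15 without replicate 3), and in the dose trend per 500 mg/kg without a PBO 0 replicate (leave-one-out range -0.015 to 0.048); it passed at 2000 mg/kg of DAM without DAM 0 replicate 3 (adjusted p = 0.0153). Ugt2b35 passed at 1000 and 1500 mg/kg of PBO with quantile normalization (0.0473 and 0.00822). No other tested gene named here changed direction. Arrays have no count depth; low signals near 16 and below are set mainly by the pseudocount.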

Other observations

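A probe set of RT1-Bb, the beta chain of a rat class II histocompatibility molecule, ran opposite to Ugt2b. It was singled out after its values were seen. The signals of RT1-Bb 1371033_at were 280 in PBO 1000 replicate 2 and 727 and 473 in PBO 1500 replicates 1 and 2, the 3 Sprague-Dawley rats low in Ugt2b. In the other 9 Sprague-Dawley rats they were 3.72 to 66.0, and in the 9 Fischer344 rats 924 to 2053. Pearson's r with Ugt2b 1387825_at was -0.929 over 12 PBO arrays, the second lowest of 31042 probe sets, and -0.956 over 21 arrays, the lowest. The second r includes the 9 Fischer344 arrays, all of them low in Ugt2b and at 924 or more here. Since the probe set was picked on its values, both ranks are a description only. The other RT1-Bb probe set, 1371065_at, ran the other way in the Fischer344 rats, with 1.11 to 51.5. In the Sprague-Dawley rats it had 830, 689 and 717 at 0 mg/kg, 270, 580 and 685 at 500 mg/kg, 184, 330 and 210 at 1000 mg/kg and 46.2, 164 and 87.3 at 1500 mg/kg. Its r with Ugt2b was 0.535 over the PBO arrays and 0.819 over 21. Cd74, the invariant chain that accompanies class II molecules, had an r of -0.034 with Ugt2b over the PBO arrays.

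The unnamed probe set 1393108_at was high, at 1433 to 4104, in PBO 500 replicate 3 and PBO 1500 replicates 1 and 2, and at most 81.9 in the other 9 Sprague-Dawley rats. The Fischer344 rats had 3865 to 6019. It shared 2 of its 3 high Sprague-Dawley animals with the low range of Ugt2b, and PBO 500 replicate 3 was high in Ugt2b.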
